A study of Mus musculus with 16 samples.

Results

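The pluripotency genes Pou5f1, Nanog, Sox2, Klf2, Klf4, Klf5, Zfp42, Esrrb, Utf1 and Tdgf1 were followed in P19 cells, a mouse embryonal carcinoma line, after a let-7a mimic, knockdown of Sfpq, or both. Members were chosen by gene symbol, checked through the RefSeq accession of each probe, and are 10 of the 27442 genes named on the array. Their messenger RNA was measured on 16 arrays of 1 colour, 4 for each of the conditions control, let-7a, siSfpq and let-7a + siSfpq. Per the methods, RNA was collected 48 h after transfection with oligonucleotides at 24 nM, and all groups come from the same line. The labels do not say what the control cells received. Sfpq is a nuclear RNA-binding protein, and the design asks whether its loss alters the response to let-7a.

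Pluripotent cells are held undifferentiated by a network of transcription factors that bind their own and each other's regulatory regions. Pou5f1 (Oct4), Sox2 and Nanog form its core, whereas Klf2, Klf4, Klf5, Esrrb and Zfp42 (Rex1) mark the naive state. Utf1 is a chromatin-bound factor of undifferentiated cells, and Tdgf1 (Cripto) is a surface coreceptor for Nodal rather than a transcription factor. The let-7 family is scarce in pluripotent cells and accumulates as they differentiate.

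The sequence of the transfected miRNA is shown first, because its seed, bases 2 to 8 in capitals, decides which transcripts it can pair with. It is the mature form in RefSeq (GRCm38.p6).
mmu-let-7a-5p: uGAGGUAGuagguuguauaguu

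A stretch upstream of Nanog is shown because it holds neighbouring matches to an octamer motif, bound by Pou5f1, and to a Sox motif, the pair through which the core factors are known to act on Nanog. It lies on the plus strand at chr6:122707384-122707457 in GRCm38.p6, from 105 to 32 bases before the nearer of its annotated starts, and the capitals mark the matches.
Nanog promoter: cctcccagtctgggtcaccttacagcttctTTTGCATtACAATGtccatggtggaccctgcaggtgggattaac

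Promoters of 9 members, 12 in all, matched the RefSeq table, and their 250 bases before the start were searched on both strands. The octamer ATGCAAA was found in 4 of the 12 promoters, those of Nanog, Sox2 and Zfp42, and in 4.125% of all 32851 promoters of that length. The Sox motif CATTGT was found in 3 of the 12, of Pou5f1 and Nanog, and in 10.69% of all promoters. The Klf motif GGGNGTGG was found in 5 of the 12, of Pou5f1, Nanog, Zfp42 and Tdgf1, and in 15.87% of all promoters. The Esrrb motif AAGGTCA was found in 4.079% of all promoters and in 0 of the 12. The Nanog promoters overlap, so that the same octamer, Sox and Klf sites of Nanog are counted in more than 1 promoter. By gene, the octamer was found in 3 of the 9 members, the Sox motif in 2 and the Klf motif in 4.

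Probes of 60 bases report each gene, and a pair that lies in coding sequence is printed here. The probes of Nanog did not respond alike, and Klf5 rests on a single probe. The Nanog probe A_55_P2007703 (mm9, plus strand, chr6:122663514-122663573) ends in the stop codon, in capitals.
Nanog probe: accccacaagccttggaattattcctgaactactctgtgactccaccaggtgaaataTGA
The Klf5 probe A_51_P507290 (mm9, plus strand, chr14:99702656-99712388) joins neighbouring exons, and the capitals mark the codons of the conserved linker between zinc fingers.
Klf5 probe: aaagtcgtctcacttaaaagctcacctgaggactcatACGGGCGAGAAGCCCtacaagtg

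Levels are log2 of the processed spot intensity after quantile normalization, averaged over the probes of a gene, so that they rank samples within a gene but not genes against each other. Between 33733 and 38464 spots per array were well above background. Between arrays 1 and 2 of a condition a single spot had an SD of 0.0481 to 0.0711 log2 units, close to the SD of 0.0598 to 0.0695 between spots of 1 probe on 1 array. Their mean was therefore treated as 1 sample, so that each condition has 3 samples, 12 in all. The methods describe transfected replicates, fewer than the arrays deposited, and nothing says which arrays share a culture, so the p-values measure only the spread between these samples, which may in part be technical. Replicates 1 and 2 lie on slide 1 and replicates 3 and 4 on slide 2, with all 4 conditions on each. A gene was called where its limma p, adjusted by Benjamini-Hochberg over the 18338 genes tested, was under 0.05, and "rose" and "fell" are written only of called genes. Changes are differences of log2 levels, with their standard errors (SE). The comparison of let-7a + siSfpq against siSfpq is called let-7a in siSfpq cells.

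Sfpq itself was at 12.07, 11.98 and 11.98 in control (replicates 1 and 2 together, 3 and 4) and 12.04, 11.997 and 11.90 with let-7a. With siSfpq it was at 10.55, 11.46 and 10.62, and with let-7a + siSfpq at 11.31, 11.49 and 11.41. Knockdown cells were below cells without siSfpq in every sample, and siSfpq replicate 3 kept the most Sfpq transcript of its condition. Sfpq fell by 1.13 (SE 0.19, adjusted p = 0.0073) with siSfpq. In let-7a + siSfpq against let-7a its change was -0.58 (SE 0.19, adjusted p = 0.142), and -0.61 (SE 0.07, adjusted p = 0.000945) without replicate 3. Against control that condition gave -0.61 (adjusted p = 0.182), and -0.67 (adjusted p = 0.0011) without replicate 3. The knockdown was unequal, since Sfpq was 0.52 higher in let-7a + siSfpq than in siSfpq (adjusted p = 0.0994, and 0.0383 with the block), and 0.77 higher without replicate 3 (adjusted p = 0.000141). Arrays of replicate 3 differed from other arrays of their condition by a median absolute deviation of at least 0.311 log2 units, against at most 0.214 for pairs without it. Values without replicate 3, which leave 2 samples per condition, are therefore given beside each result whose call they change. Same-numbered samples also deviated together, so values with the replicate as a block are given where they change a call.

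Of the 10 members, 9 passed the filter on dim probes. Zfp42, a zinc finger factor of naive cells, was well above background on 1 of 16 arrays, with a processed intensity between 2.45 and 43.6 and a median of 4.77, and no change was computed for it. The lowest signal well above background was between 10.9 and 20.4 on the same arrays. Of the 2 Esrrb probes, A_52_P628212 was well above background on 1 array and was left out, so that Esrrb rests on A_55_P1954302. The other 13 probes of the members were well above background on all 16 arrays.

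**Figure D1:**
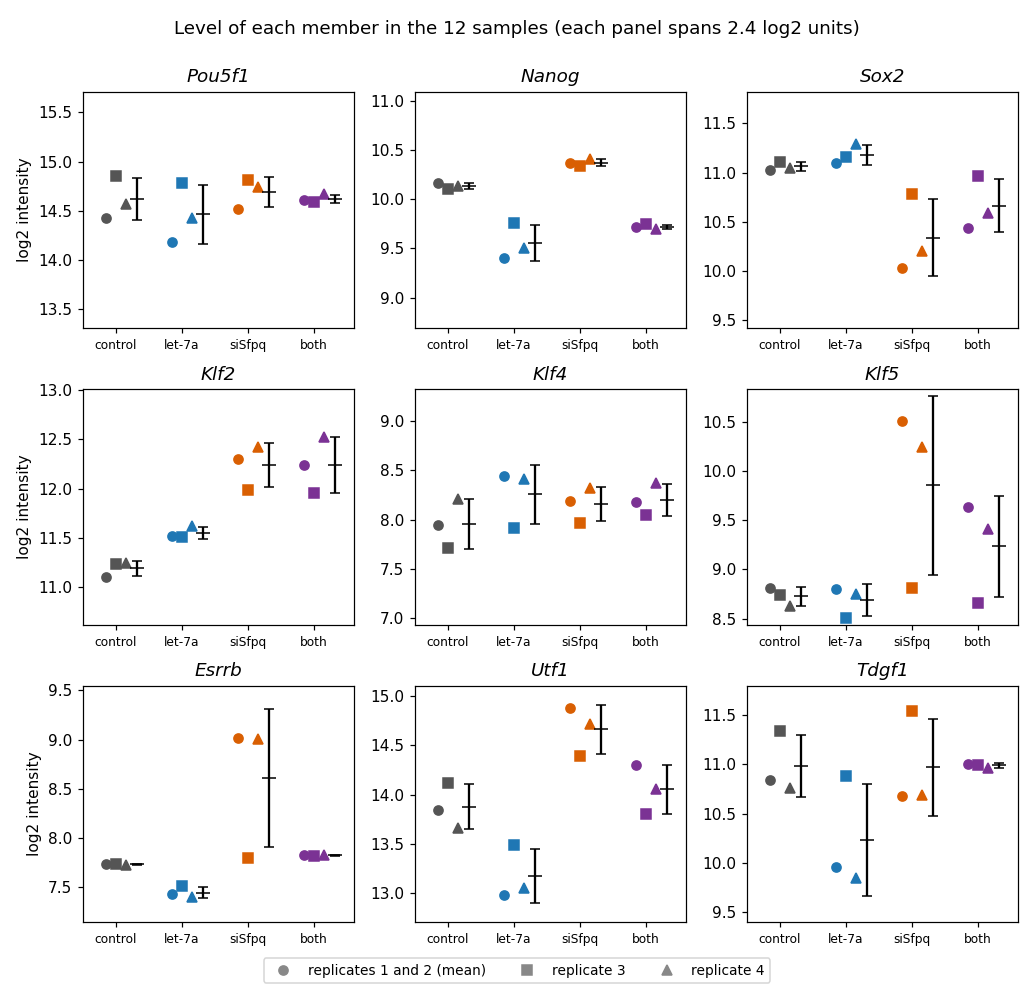
Levels of the 9 measured members, as log2 intensity, in the 12 samples by condition. Symbols are samples, horizontal bars with whiskers are the mean and SD of 3 samples, and "both" is let-7a + siSfpq. Nanog sat lower in both conditions with let-7a, Klf2 higher in both with siSfpq, and the siSfpq samples of Klf5 and Esrrb were spread over more than 1 unit.

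With let-7a, 2 of the 9 measured members fell, Nanog and Utf1, against 2.03% of all genes that fell and 4.91% that rose. The median change of the members was -0.15, and that of all genes was -0.04. With siSfpq, Klf2, Utf1 and Esrrb rose and Sox2 fell, against 6.31% of all genes called higher and 7.34% called lower, and the median was 0.24 for the members and 0.01 for all genes. With let-7a + siSfpq, Klf2 rose against control, where 1.3% of all genes were called higher and 0.245% lower. Against let-7a, Klf2 and Utf1 rose, with 0.954% of all genes called higher and 2.18% lower. Against siSfpq, Nanog fell, with 6.21% of all genes called higher and 4.14% lower.

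Calls depended on replicate 3 and on the block, for the members and for all genes alike. With the replicate as a block, 5 of the 9 members were called with let-7a (21.7% of all genes), 5 with siSfpq (37.8%) and 2 with let-7a + siSfpq against control (8.15%). The block gave 4 members against let-7a (13.2%) and 3 against siSfpq (33.3%). Without replicate 3, 5 members were called with let-7a (30.2%), 6 with siSfpq (49.3%) and 5 with let-7a + siSfpq against control (18.4%). Leaving it out gave 7 members against let-7a (26.8%) and 6 against siSfpq (47.2%). Without replicates 1 and 2 together, or without replicate 4, 0 members and between 0 and 3 of 18345 genes were called in each comparison. A call after replicate 3 was left out was thus common among all genes, whereas Pou5f1 was not called in any of the fits named here.

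**Figure D2:**
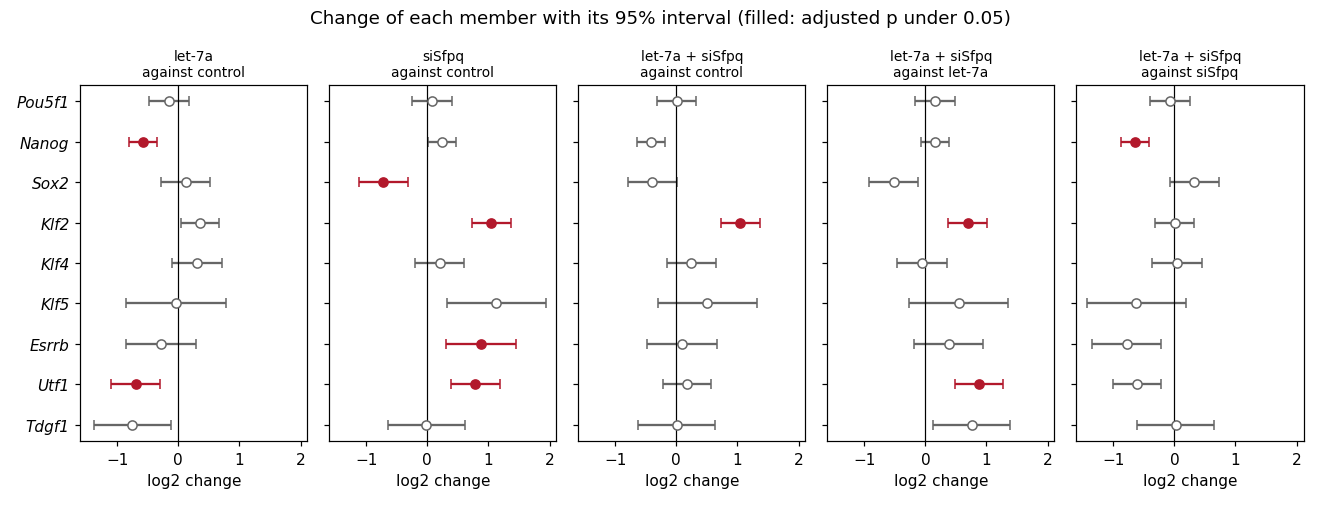
Log2 change of each measured member in 5 comparisons, with 95% intervals from the limma fit over 12 samples. Filled points have an adjusted p under 0.05, namely Nanog and Utf1 with let-7a, Sox2, Klf2, Esrrb and Utf1 with siSfpq, Klf2 with both against control, Klf2 and Utf1 with both against let-7a, and Nanog with both against siSfpq.

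Pou5f1, the POU factor that pluripotent cells require, was at 14.43, 14.85 and 14.57 in control and 14.19, 14.78 and 14.43 with let-7a. The knockdown samples were at 14.52, 14.81 and 14.75 for siSfpq alone and at 14.61, 14.59 and 14.67 for let-7a + siSfpq. All 4 conditions overlapped. Its change was -0.15 with let-7a (95% interval -0.47 to 0.17, adjusted p = 0.648) and 0.08 with siSfpq (-0.25 to 0.40, adjusted p = 0.781). The change with both against control was 0.01 (-0.32 to 0.33, adjusted p = 0.998), and the sign of so small a value turned under other scalings.

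Nanog, a homeobox factor that stabilizes self-renewal, was at 10.16, 10.11 and 10.13 in control and at 9.41, 9.76 and 9.50 with let-7a. It was at 10.36, 10.34 and 10.41 with siSfpq and at 9.72, 9.74 and 9.70 with let-7a + siSfpq. Each let-7a sample was below each sample without let-7a, and let-7a + siSfpq lay within the range of let-7a alone. Nanog fell by 0.58 with let-7a (SE 0.10, adjusted p = 0.0076, lower in 3 of 3 replicate numbers) and by 0.65 with let-7a in siSfpq cells (SE 0.10, adjusted p = 0.006). The difference between those effects was -0.07 (95% interval -0.40 to 0.25, adjusted p = 0.985). Against control, let-7a + siSfpq gave -0.41 (SE 0.10, adjusted p = 0.089, and 0.0214 with the block), and without replicate 3 it gave -0.44 (adjusted p = 0.0034). Against let-7a it gave 0.16 (adjusted p = 0.512), and 0.25 without replicate 3 (adjusted p = 0.0221). The change with siSfpq was 0.24 (SE 0.10, adjusted p = 0.148), and without replicate 3 it was again 0.24 with an adjusted p of 0.0146.

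The 3 Nanog probes did not respond to the same extent. With let-7a, the coding probe printed above changed by -0.87 (adjusted p = 0.0226 in the fit over probes), and A_55_P2007708, nearer the end of the transcript, by -0.75 (adjusted p = 0.0032). A_55_P2007699, which lies between them in mm9, changed by -0.11 (adjusted p = 0.841). That probe shares a run of 15 bases, on either strand, with 18 of the other probes on the array but with 1 on the same strand, whereas the other Nanog probes share such a run with 0. Whether the shared bases played a part was not tested.

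**Figure D3:**
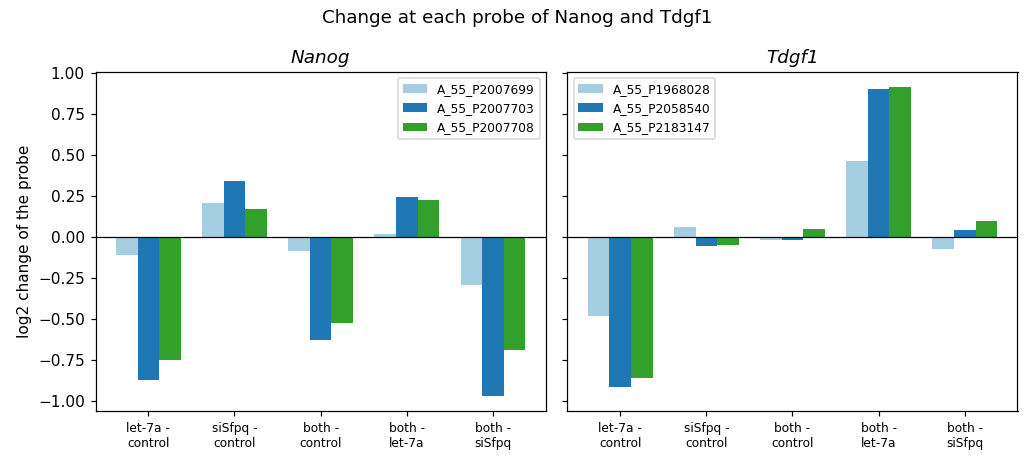
Log2 change at each of the 3 probes of Nanog and of Tdgf1 in 5 comparisons, bars starting at 0. In let-7a against control the probes with the most shared runs on either strand, A_55_P2007699 of Nanog and A_55_P1968028 of Tdgf1, changed by -0.11 and -0.48, less than the other probes of their gene. With siSfpq this order did not hold for Nanog, where A_55_P2007699 changed by 0.21 and A_55_P2007708 by 0.17. Whether the shared runs played a part was not tested.

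Sox2, the HMG-box partner of Pou5f1, was at 11.02, 11.11 and 11.05 in control and 11.10, 11.16 and 11.29 with let-7a. With siSfpq it was at 10.04, 10.78 and 10.21, and with let-7a + siSfpq at 10.44, 10.96 and 10.59. All samples with siSfpq were below all samples without it, with replicate 3 the closest to control in both knockdown conditions. Sox2 fell by 0.72 with siSfpq (SE 0.18, adjusted p = 0.0273) and by 0.92 without replicate 3 (adjusted p = 0.000192). That call was lost on scaling to the 75th percentile (adjusted p = 0.0514), with no filter on dim probes (0.0545) and with the groups compared alone (0.0875). In let-7a + siSfpq the change was -0.40 against control (SE 0.18, adjusted p = 0.430) and -0.52 against let-7a (SE 0.18, adjusted p = 0.169, and 0.0338 with the block). Without replicate 3 these were -0.52 (adjusted p = 0.0096) and -0.68 (adjusted p = 0.002). With let-7a alone the change was 0.12 (95% interval -0.28 to 0.52). Let-7a in siSfpq cells gave 0.32 (adjusted p = 0.272), and 0.40 without replicate 3 (adjusted p = 0.0108). Of the core factors, Nanog was thus called with let-7a, Sox2 with siSfpq and Pou5f1 with neither, and the differences between these genes were not tested.

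The Krüppel-like factors bind GC-rich sites, and Klf2, Klf4 and Klf5 together sustain the naive state. Klf2 was at 11.10, 11.23 and 11.24 in control and 11.52, 11.50 and 11.62 with let-7a. The knockdown samples were at 12.31, 11.99 and 12.42 for siSfpq alone and at 12.24, 11.96 and 12.52 for let-7a + siSfpq. Control, let-7a and the knockdown samples did not overlap, and the knockdown conditions overlapped fully. Klf2 rose by 1.05 with siSfpq (SE 0.15, adjusted p = 0.0048), which is 2.06-fold, by 1.05 with let-7a + siSfpq against control (SE 0.15, adjusted p = 0.0055) and by 0.69 with let-7a + siSfpq against let-7a (SE 0.15, adjusted p = 0.0276). It was higher in 3 of 3 replicate numbers in each, replicate 3 included at 0.76, 0.72 and 0.45. With the groups compared alone the first and last of these calls were lost (adjusted p = 0.0522 and 0.054), and with no filter on dim probes the last (0.0555). Its change with let-7a was 0.36 (SE 0.15, adjusted p = 0.186, and 0.0376 with the block), and 0.40 without replicate 3 (adjusted p = 0.0236), whereas let-7a in siSfpq cells gave 0.00 (95% interval -0.31 to 0.32).

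Klf4, also a reprogramming factor, was at 7.95, 7.71 and 8.21 in control and 8.45, 7.92 and 8.41 with let-7a. With siSfpq it was at 8.19, 7.97 and 8.32, and with let-7a + siSfpq at 8.18, 8.05 and 8.37. All conditions overlapped. Replicate 3 was the lowest sample in each condition. Its change was 0.30 with let-7a (SE 0.19, adjusted p = 0.409, and 0.0484 with the block), 0.20 with siSfpq (SE 0.19, adjusted p = 0.505) and 0.24 with both (SE 0.19, adjusted p = 0.744).

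Klf5 was at 8.81, 8.74 and 8.63 in control and 8.80, 8.50 and 8.75 with let-7a. The knockdown samples were at 10.51, 8.82 and 10.24 for siSfpq alone and at 9.63, 8.65 and 9.41 for let-7a + siSfpq. In siSfpq, replicate 3 lay just above the highest control sample, and the other samples far above it. Klf5 changed by 1.13 with siSfpq (SE 0.37, adjusted p = 0.0651, and 0.0107 with the block), and without replicate 3 it rose by 1.65 (adjusted p = 4.13e-05). Without replicate 3 it also rose by 0.80 with both against control (adjusted p = 0.0046) and fell by 0.85 with let-7a in siSfpq cells (adjusted p = 0.001). In all samples those changes were 0.51 (SE 0.37, adjusted p = 0.727) and -0.62 (SE 0.37, adjusted p = 0.303). Against let-7a, let-7a + siSfpq gave 0.55 (adjusted p = 0.546), and 0.74 without replicate 3 (adjusted p = 0.004).

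Esrrb, an orphan nuclear receptor that can stand in for Nanog, was at 7.74, 7.74 and 7.73 in control and 7.43, 7.51 and 7.40 with let-7a. With siSfpq it was at 9.02, 7.80 and 9.01, and with let-7a + siSfpq at 7.83, 7.82 and 7.83. Its siSfpq samples divided as those of Klf5 did, replicate 3 apart from the others. Esrrb rose by 0.87 with siSfpq (SE 0.26, adjusted p = 0.0466), and by 1.28 without replicate 3 (adjusted p = 1.98e-05). The call was lost without replicate 2 (adjusted p = 0.0538), with no intensity trend (0.0543), on scaling to the 75th percentile (0.0551) and with the groups compared alone (0.152). With no filter on dim probes, which brings in the dim probe, the change was 0.59 (adjusted p = 0.443). Let-7a in siSfpq cells gave -0.78 (SE 0.26, adjusted p = 0.0762, and 0.0322 with the block), with changes of -1.18, 0.02 and -1.18 by replicate number. Without replicate 3 it fell by 1.18 (adjusted p = 3.55e-05). With let-7a alone the change was -0.29 (SE 0.26, adjusted p = 0.618), and -0.32 without replicate 3 (adjusted p = 0.0191), and let-7a samples did not overlap control. Against let-7a, let-7a + siSfpq gave 0.38 (adjusted p = 0.548), and 0.42 without replicate 3 (adjusted p = 0.0072).

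**Figure D4:**
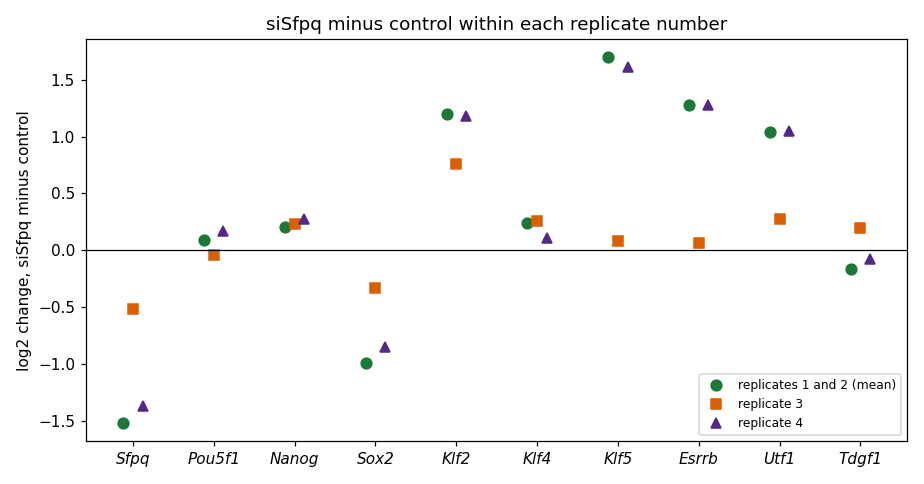
Log2 difference between siSfpq and control within each replicate number, for Sfpq and the 9 measured members. In replicate 3, Sfpq was 0.52 lower, against 1.52 and 1.36 in the others, and the differences of Klf5, Esrrb, Utf1, Sox2 and Klf2 were the smallest of the 3 in size.

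Utf1 was at 13.85, 14.12 and 13.67 in control and 12.98, 13.49 and 13.05 with let-7a. The knockdown samples were at 14.88, 14.39 and 14.71 for siSfpq alone and at 14.30, 13.80 and 14.06 for let-7a + siSfpq. Let-7a samples were the lowest and siSfpq samples the highest, and neither overlapped another condition, whereas let-7a + siSfpq overlapped control. Utf1 fell by 0.70 with let-7a (SE 0.18, adjusted p = 0.0395), rose by 0.79 with siSfpq (SE 0.18, adjusted p = 0.0198) and rose by 0.88 with let-7a + siSfpq against let-7a (SE 0.18, adjusted p = 0.0257). With no filter on dim probes the first and last of these calls were lost (adjusted p = 0.0807 and 0.0641), the first with no intensity trend (0.0607), and the call with siSfpq with the groups compared alone (0.0615). Let-7a in siSfpq cells gave -0.61 (SE 0.18, adjusted p = 0.0534, and 0.0294 with the block), lower in 3 of 3 replicate numbers, and -0.62 without replicate 3 (adjusted p = 0.0023). With both against control the change was 0.18 (95% interval -0.22 to 0.57), with 0.45, -0.32 and 0.39 by replicate number, and without replicate 3 it was 0.42 (adjusted p = 0.0302).

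Tdgf1 was at 10.85, 11.34 and 10.76 in control and 9.96, 10.89 and 9.85 with let-7a. With siSfpq it was at 10.68, 11.54 and 10.69, and with let-7a + siSfpq at 11.01, 11.00 and 10.96. Replicate 3 was the highest sample of each condition except let-7a + siSfpq. The change with let-7a was -0.75 (SE 0.29, adjusted p = 0.157, and 0.0126 with the block), and -0.90 without replicate 3 (adjusted p = 9.14e-05). With let-7a + siSfpq against let-7a it was 0.76 (SE 0.29, adjusted p = 0.203, and 0.0188 with the block), and 1.08 without replicate 3 (adjusted p = 5.5e-05). With siSfpq alone the change was -0.02 (95% interval -0.65 to 0.62). Let-7a in siSfpq cells gave 0.02 (adjusted p = 0.974), and 0.30 without replicate 3 (adjusted p = 0.0062). Probes A_55_P2058540 and A_55_P2183147 changed by -0.92 and -0.86 with let-7a, and A_55_P1968028, which shares a run of 15 bases, on either strand, with 15 of the other probes (8 on the same strand), by -0.48.

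The interaction asks whether let-7a acted differently once Sfpq was knocked down. The depth of the knockdown differed between the conditions it sets side by side, and Sfpq itself had an interaction of 0.56 (adjusted p = 0.807), and of 0.83 without replicate 3 (adjusted p = 0.0018). The part of this difference in the results for let-7a in siSfpq cells and in the interaction was not tested. In the limma fit 0 of the 9 members were called, with 0 at an unadjusted p under 0.05, against 0% of all genes called and 1163 genes at that unadjusted p. With the replicate as a block, 0 members were called, against 0.0218% of all genes. The interaction of Tdgf1 was 0.77 (95% interval -0.12 to 1.67, adjusted p = 0.818), that of Klf5 -0.58 (-1.74 to 0.57, adjusted p = 0.903) and that of Esrrb -0.49 (-1.30 to 0.31, adjusted p = 0.870). Without replicate 3 these were the 3 members called, at 1.20 (adjusted p = 0.000385), -0.91 (adjusted p = 0.0094) and -0.86 (adjusted p = 0.0021), where 22.5% of all genes were called. Nanog, at 0.01 without replicate 3 (adjusted p = 0.950), was not among them.

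Among 22 other genes of the pluripotency network, 20 were measured. With let-7a, where 2.03% of all genes fell, 3 of them fell, Lin28a by 0.77 (SE 0.11, adjusted p = 0.0025), Zscan10 and Zfp296. Lin28a, an RNA-binding protein that blocks let-7 maturation, fell by 0.65 with let-7a in siSfpq cells as well (SE 0.11, adjusted p = 0.0093). With siSfpq, 7 rose and 2 fell (6.31% and 7.34% of all genes), and the median over the 20 genes was 0.48 against 0.01 for all genes. Tfcp2l1, a naive-state transcription factor, rose by 2.04 (SE 0.34, adjusted p = 0.0068), from 5.98, 5.38 and 5.67 in control to 8.14, 6.98 and 8.03. Dppa3 (Stella), a germline and naive-state factor, rose by 2.99 (SE 0.84, adjusted p = 0.0388), and Dppa4, a chromatin-associated factor, by 1.83 (SE 0.52, adjusted p = 0.0398). Both were lowest in siSfpq replicate 3, at 5.85 for Dppa3 against 9.13 and 9.21, and at 5.11 for Dppa4 against 7.23 and 7.23. Eras, a Ras protein of embryonic stem cells, fell by 1.47 (SE 0.36, adjusted p = 0.0246). Under the block the calls numbered 6 of 20 for let-7a (21.7% of all genes) and 12 of 20 for siSfpq (37.8%), and without replicate 3 they numbered 11 (30.2%) and 14 (49.3%).

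**Figure D5:**
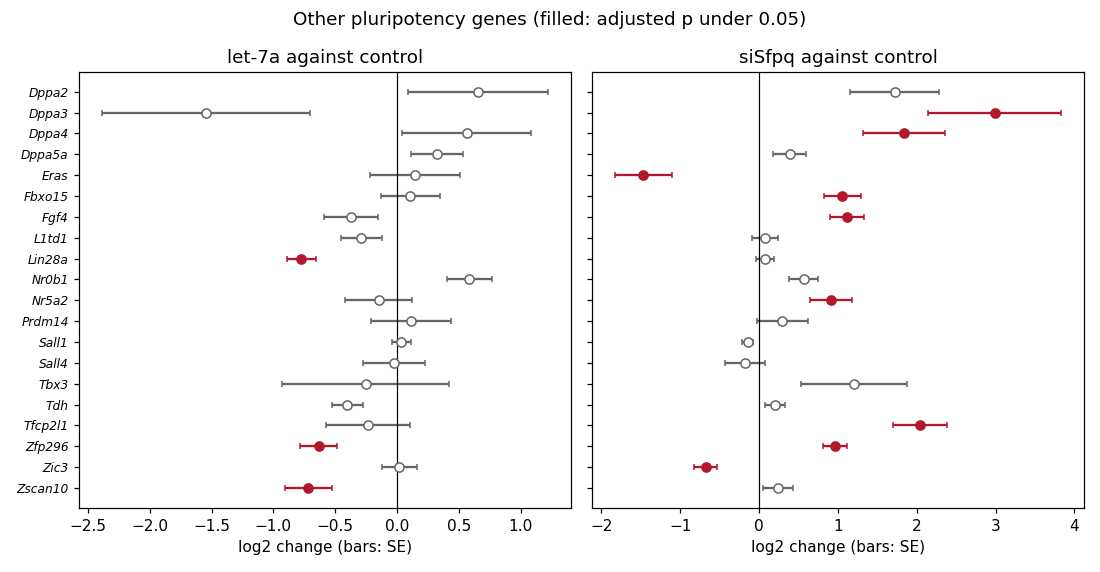
Log2 change of 20 other pluripotency genes with let-7a and with siSfpq against control, points with SE bars, filled where the adjusted p was under 0.05. With let-7a 3 genes were called and all fell, and with siSfpq 7 rose and 2 fell.

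Of 12 other Klf genes measured, out of 14 listed, 4 rose with siSfpq and 1 fell, against 6.31% and 7.34% of all genes. Klf10, a TGF-beta-induced repressor, rose by 0.93 (SE 0.22, adjusted p = 0.0221), from 9.42, 9.51 and 9.51 in control to 10.73, 9.73 and 10.78. Klf12, a repressor, changed by -0.99 in let-7a + siSfpq against let-7a (SE 0.19, adjusted p = 0.0217). With let-7a in siSfpq cells 1 gene of the list rose, Klf3 by 0.64 (SE 0.17, adjusted p = 0.0396), and 2 fell, against 6.21% and 4.14% of all genes, namely Klf11 by 1.05 (SE 0.29, adjusted p = 0.0421) and Klf16 by 0.71 (SE 0.16, adjusted p = 0.0215). For siSfpq 9 of the 12 were called under the block (37.8% of all genes), and 9 without replicate 3 (49.3%).

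All 16 genes listed for the Nodal pathway, in which Tdgf1 serves, were measured. Nodal itself, the ligand, was at 13.05, 13.07 and 12.89 in control and at 11.54, 12.35 and 11.45 with let-7a, and fell by 1.22 (SE 0.24, adjusted p = 0.0115). In all, 2 genes of the list fell with let-7a, as 2.03% of all genes did, and the median of the list was -0.18 against -0.04 for all genes. With siSfpq, 3 rose, against 6.31% of all genes, among them the ligand Gdf1 by 0.85 (SE 0.25, adjusted p = 0.0447) and the convertase Pcsk6 by 0.70 (SE 0.16, adjusted p = 0.0202). The third, the Tdgf1 relative Cfc1, was well above background on fewer than 4 control arrays, and no fold is given for it. With the replicate as a block, the list had 4 called genes of 16 for let-7a (21.7% of all genes) and 7 for siSfpq (37.8%), and without replicate 3 it had 6 (30.2%) and 9 (49.3%).

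Markers of the line and of other lineages were read in the same samples. Of 6 embryonal carcinoma markers, which include the members Pou5f1 and Sox2, 5 were measured and Fut4 was not well above background. Of the 5, Lin28a fell with let-7a and Sox2 with siSfpq, as given above. Lin28a also fell with both against control, by 0.57 (SE 0.11, adjusted p = 0.0361), where 0.245% of all genes fell. The mean levels of let-7a and siSfpq overlapped control, whereas those of let-7a + siSfpq lay below it. Their mean log2 level was between 11.10 and 11.24 in control and between 10.82 and 11.15 with let-7a. The range was 11.03 to 11.15 for siSfpq alone and 11.00 to 11.09 for both. Of 10 neuroectoderm markers, 9 were measured and Pax6 was not well above background. Of the 9, 6 rose with let-7a and 6 fell with siSfpq (4.91% and 7.34% of all genes), among them Tubb3, a neuronal tubulin, which rose by 1.40 (SE 0.21, adjusted p = 0.0025) and fell by 1.44 (SE 0.21, adjusted p = 0.0055). Dcx, a microtubule protein of migrating neurons, rose by 1.99 with let-7a (SE 0.46, adjusted p = 0.0257). Neurod1 is counted in both directions and Neurog2 among those that fell, although each passed the filter only through the conditions where it was high. Over the 6 markers that passed in every condition, which leaves out Neurod1, Neurog1 and Neurog2, the mean level was between 9.20 and 9.56 in control and between 9.93 and 10.56 with let-7a. The range was 8.46 to 8.68 for siSfpq alone and 9.35 to 9.48 for both. The samples with let-7a alone, where Utf1 was lowest, thus had the highest level of these 6 markers.

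Of 8 mesendoderm markers, 6 were measured, Mixl1 and Sox17 being dim. T (Brachyury) and Gsc, both primitive streak factors, fell with let-7a, and T fell by 2.29 (SE 0.36, adjusted p = 0.0037), and T rose with siSfpq by 1.91 (SE 0.36, adjusted p = 0.0105). With let-7a 2.03% of all genes fell, and with siSfpq 6.31% rose. Eomes, a T-box factor, rose by 0.96 in let-7a + siSfpq against let-7a (SE 0.23, adjusted p = 0.0465). Over the 4 that passed in every condition, without Foxa2 and Mesp1, the mean level was between 8.50 and 8.62 in control and between 7.57 and 7.60 with let-7a. The range was 9.18 to 9.27 for siSfpq alone and 8.03 to 8.77 for both. Of 7 extraembryonic endoderm markers, 5 were measured, Sox17 and Afp being dim, and 1, Amn, rose with siSfpq. Without Gata4 and Sox7, which were dim in some condition, the mean level was 6.65 to 7.01 in control and 7.10 to 7.57 with siSfpq. The range was 6.96 to 7.10 for let-7a alone and 7.08 to 7.50 for both. The markers left did not move alike between control and siSfpq. Amn went from a mean of 5.45 to 7.39 and Gata6 from 6.85 to 7.23, whereas Dab2 went from 8.24 to 7.43. Of 6 trophoblast markers, 3 were measured, Hand1, Krt7 and Elf5 being dim, and 2 rose with siSfpq, against 6.31% of all genes, of which Tfap2c rose by 0.88 (SE 0.25, adjusted p = 0.0374). The other, Cdx2, passed the filter only through siSfpq, and no fold is given for it. Without Cdx2 the mean level was 8.44 to 8.81 in control and 8.90 to 10.11 with siSfpq. It was 8.74 to 9.13 with let-7a alone and 8.85 to 9.21 with both. All 6 fibroblast markers were measured, and 1 of them, Col1a2, rose with let-7a (4.91% of all genes) and 1, Dcn, with siSfpq (6.31%). With let-7a in siSfpq cells 2 rose (6.21%), among them Pdgfra, a growth factor receptor, by 2.19 (SE 0.37, adjusted p = 0.0078). Their mean level was 8.54 to 8.70 in control, 8.96 to 9.06 with let-7a, 8.44 to 8.70 with siSfpq and 9.12 to 9.27 with both. Their part in the changes of the pluripotency genes was not tested, and in bulk RNA fewer cells of a type cannot be told apart from less RNA per cell.

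The genes whose levels followed those of the core factors most closely over the 12 samples were, for Pou5f1, its related sequence Pou5f1-rs4 (Pearson r = 0.969), Srsf6 (0.944) and Pdha1 (0.941). Pou5f1-rs4 is a near copy of Pou5f1, and hybridization of the transcripts of one to the probe of the other cannot be told apart from its own. For Nanog they were Dusp9 (0.978), Hif1an (0.968) and Cct4 (0.965), and for Sox2 they were Atp5k (0.980), Med11 (0.976) and Zfand3 (0.975). Among the members, Klf5 and Esrrb had the highest positive correlation (0.897), with siSfpq replicate 3 near control for both, and Sox2 and Klf5 had the strongest negative one (-0.955). These values describe 12 samples that share the 4 conditions. Zscan10, Zfp296, Klf3, Cfc1, Cdx2, Gata6, Dab2 and the markers named as dim were named after their values were seen.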

How the data were processed

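Total RNA of P19 cells in 4 conditions carried the dye Cy3 and was read on Agilent arrays. Spot intensities were deposited as given by Agilent Feature Extraction 10.7.3.1, where, per the file headers, background and spatial trend had been removed from the processed intensity and no scaling between arrays done. Deposited log2 values, which the methods say were quantile normalized with limma, follow log2 of the median spot intensity without subtraction of background (r of at least 0.99948), with column medians between 6.05 and 6.06.

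Here the processed intensity was taken to log2 and normalized by quantiles with limma 3.58.1 in R 4.3.3. Outlier spots were left out, and a probe was kept where some condition had it well above background on its 4 arrays. Probes without a gene name were dropped, a choice made after the values of the members had been seen (keeping them is among the alternatives), as were 39 probes that lacked a value on an array, and the 24537 others were averaged by gene. Files were read with the R package data.table (version 1.17.8), sequences with Python 3.11.15, and figures drawn with matplotlib 3.10.9. Means of the conditions were fitted in 1 model with moderated variances and an intensity trend, and the fit was tested on simulated data. For let-7a against control, it called 5 of 200 genes with a simulated log2 change of 0.5, 111 at 1 and 188 at 2. Genes called wrongly numbered 0, 6 and 8. A change near 0.5 was thus rarely called, and the lack of a call does not show that a gene was unchanged. All tests are two-sided, and an exact permutation of 3 samples against 3 could not go below p = 0.1. Array number and brightness limit the precision.

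Titles number the replicates alike in each condition. Deviations of same-numbered samples from their condition means correlated at 0.524 to 0.697 for replicates 1 and 2, 0.453 to 0.707 for replicate 3 and 0.284 to 0.465 for replicate 4, so the numbers pair the samples and fits with the replicate as a block are given where they change a call. Members and gene lists were chosen with earlier results of these data known. Named were the members, Sfpq, up to 4 called genes of each list with the largest changes and a passing probe in both groups, and for each core factor the 3 genes with the highest Pearson correlation. A called gene of the Nodal list is not reported here.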

Additional observations from a re-analysis of the deposited data

How the results depend on the processing

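Alternatives were another scaling, background correction, filter, block, probe choice, sample set or variance model, or the omission of replicates. Of the single-gene changes recomputed in this way, 802 kept their direction and side of the threshold, 46 passed it newly, 35 no longer passed it and 26 changed sign. All sign changes concerned values that were not called. Leaving out replicates gave 0 to 5 members called with let-7a, 0 to 6 with siSfpq, 0 to 5 with both against control, 0 to 7 with both against let-7a, 0 to 6 with both against siSfpq and 0 to 3 in the interaction. The low ends came from leaving out replicates 1 and 2, or 4, and the high ends from leaving out replicate 3. Without replicates 1 and 2, 0 genes of all were called with siSfpq, and 0 without replicate 4.

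With the replicate block, 5 members were called with let-7a, 2 with both against control, 4 with both against let-7a and 3 with both against siSfpq, and in siSfpq against control it added Klf5 for 5 called. The calls it added elsewhere were Klf2, Klf4 and Tdgf1 with let-7a, Nanog with both against control, Sox2 and Tdgf1 with both against let-7a, and Esrrb and Utf1 with both against siSfpq. It changed no other call of the members. The slide as a block also called Klf5 with siSfpq, for 5 members, where 16.5% of all genes were called. Counting 16 arrays separately gave 4, 2, 4 and 3 in the same order and 6 with siSfpq, where 19.8%, 7.89%, 14.2%, 32.4% and 36% of all genes were called. With no filter on dim probes, 1 member was called with let-7a, 2 with siSfpq and 0 with both against let-7a, against 3.77%, 5.54% and 1.13% of all 27400 genes. No intensity trend gave 1 with let-7a and 3 with siSfpq, Esrrb being lost, against 6.6% and 12.2% of all genes. Scaling to the 75th percentile gave 2 with siSfpq, Klf2 and Utf1, and 2 with both against siSfpq, where 15.4% and 12.5% of all genes were called. With the groups compared alone, 3 members were called with let-7a (Klf2 in addition), 0 with siSfpq and 1 with both against let-7a, where 9.06%, 0% and 2.99% of all genes were called. The brightest probe gave 2 with both against control (1.43% of all genes), and the authors' normalized values 2 with both against siSfpq (9.61%). Keeping probes named only by a probe ID, an alternative chosen after seeing the data, raised the genes tested to 19658 and left each call of the members as it was. The cause of these differences was not tested.

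Among values near 0, scaling to the 75th percentile turned Tdgf1 with siSfpq to 0.0397, Pou5f1 with both against control to -0.0199, and Klf2 and Tdgf1 with both against siSfpq to -0.145 and -0.0377. Normexp with an offset of 50 turned Pou5f1 with both against control to -0.0038, 16 separate arrays turned Klf2 with both against siSfpq to -0.0127, and the brightest probe turned the interaction of Nanog to 0.0598. Leaving out replicates gave -0.12 to 0.0587 for Klf5 with let-7a, -0.121 to 0.0608 for Tdgf1 with siSfpq, -0.0807 to 0.137 for Pou5f1 and -0.0931 to 0.182 for Tdgf1 with both against control, and -0.154 to 0.0475 for Klf4 with both against let-7a. With both against siSfpq it gave -0.149 to 0.0036 for Pou5f1, -0.0474 to 0.0351 for Klf2 and -0.134 to 0.302 for Tdgf1. In the interaction it gave -0.0413 to 0.196 for Pou5f1, -0.165 to 0.012 for Nanog and -0.0038 to 0.158 for Utf1.

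Zfp42 was well above background on 1 of 16 arrays, so its response was not measurable here.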

Other observations

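Receptors, kinases and targets of the signals that sustain or exit pluripotency were measured for all 15 genes listed. With siSfpq, Il6st, the shared receptor subunit of the LIF pathway, rose by 0.82 (SE 0.16, limma adjusted p = 0.0121), and Socs3, a feedback inhibitor of the same pathway, by 0.72 (SE 0.20, adjusted p = 0.035). Socs3 was at 11.40 in both control and siSfpq for replicate 3, and without that replicate its change was 1.08 (adjusted p = 1.06e-05). Spry4, a feedback inhibitor of FGF signalling, rose by 1.84 (SE 0.44, adjusted p = 0.0235), and Tcf7l1, a repressor of pluripotency genes, fell by 1.13 (SE 0.27, adjusted p = 0.0217). In all, 3 genes of the list rose and 2 fell with siSfpq, against 6.31% and 7.34% of all genes, and the median was -0.03 against 0.01 for all genes. Under the replicate block 7 of the 15 were called with siSfpq (37.8% of all genes), and without replicate 3, 11 (49.3%).

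All 10 genes listed for the primed and formative states were measured. With siSfpq 1 rose and 2 fell (6.31% and 7.34% of all genes), with a median of -0.04 against 0.01 for all genes, and 5 were called under the block (37.8%) and 6 without replicate 3 (49.3%). Pou3f1 (Oct6), a POU factor of the epiblast and of neural progenitors, rose by 1.005 with let-7a (SE 0.26, adjusted p = 0.0409), fell by 1.27 with siSfpq (SE 0.26, adjusted p = 0.0137) and rose by 1.13 with let-7a in siSfpq cells (SE 0.26, adjusted p = 0.0243). Grhl2, an epithelial transcription factor, rose by 2.89 with siSfpq (SE 0.71, adjusted p = 0.0241), and Sall2 fell by 0.92 (SE 0.27, adjusted p = 0.0427). Fgf5, a marker of the primed epiblast, rose by 0.93 with let-7a + siSfpq against let-7a (SE 0.20, adjusted p = 0.0309).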
